A study of Mus musculus with 32 samples.

Results

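The expression of 5 genes whose products handle arginine, nitric oxide and itaconate was followed across BV-2 cells under vehicle or lipopolysaccharide (LPS) with a scramble control or 1 of 3 microRNA mimics. The genes were Slc7a2, Ass1, Nos2, Odc1 and Irg1. They are 5 of a set of 7 genes chosen by name for their function, all found among the 45706 genes in the table, and the rest of the set is not reported here. BV-2 is an immortalised mouse microglial line, here 1 line with no genetic change labelled. It was sequenced as 32 total RNA libraries after depletion of ribosomal RNA. The 8 groups held 4 libraries each, numbered replicate 1 to 4. Under vehicle they were transfected with scramble mimic (VEH scramble), miR-7a-5p mimic (VEH miR-7a), miR-29a-3p mimic (VEH miR-29a) or miR-146a-5p mimic (VEH miR-146a), and the same 4 mimics were given with LPS at 10 ng/ml for 24 h (LPS scramble, LPS miR-7a, LPS miR-29a and LPS miR-146a). A mimic is a short double-stranded RNA that supplies the mature microRNA for a limited time, and every group, controls included, was transfected. The labels and the methods of the study differ on whether LPS or transfection came first. Replicates of these cells were separate experiments per the methods of the study.

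Arginine enters macrophages and microglia through cationic amino acid transporters such as Slc7a2. Nos2, the inducible nitric oxide synthase, turns arginine into nitric oxide and citrulline, and Ass1 (argininosuccinate synthase) takes part in rebuilding arginine from citrulline. Odc1 (ornithine decarboxylase) makes the polyamine putrescine from ornithine, which derives from arginine. Irg1, now named Acod1, makes itaconate from the citric acid cycle intermediate cis-aconitate in mitochondria. Macrophages activated by bacterial products are known for high Nos2 and Irg1.

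The values are estimated counts whose decimal mark had been lost in the deposited table and was put back by a statistical model, scaled to normalised CPM, read counts relative to library size, with library sizes set by the TMM method over all 32 libraries for the levels and over the libraries compared for each test. Library totals ran from 1201800 to 20491500 counts, lowest in VEH miR-7a. Small structural RNA genes held 35.2% to 38.8% of the counts in VEH miR-7a replicates 2 to 4, 4.35% in replicate 1 of that group and 2.67% to 18.9% elsewhere. Of 14 microglia and macrophage markers, 13 had a median above 1 normalised CPM over the libraries, while none of 8 astrocyte and glioma markers did, although the labels name the cell type as glioblastoma. In every library, the summed level of the 14 microglial markers (3339 to 6950 normalised CPM) was far above the sums of the astrocyte (0 to 3.22), neuron (0 to 2.98), fibroblast (0 to 2.41), lymphocyte (0 to 0.805) and oligodendrocyte (1.62 to 17.6) lists. A gene was called where the limma-voom adjusted p was under 0.05 and the log2 fold change was above 0.3 in size. Within a condition the 3 mimics were compared with the same 4 scramble libraries, so these comparisons are not independent.

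The 3 mature microRNAs that were supplied are shown with their seed, bases 2 to 8, in capitals, because the seed is the part that pairs with a target (RefSeq, GRCm38.p6).
miR-7a-5p: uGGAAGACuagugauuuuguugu
miR-29a-3p: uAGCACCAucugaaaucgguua
miR-146a-5p: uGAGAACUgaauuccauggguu

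None of the 3 seeds are shared. Matches to bases 2 to 8, or to bases 2 to 7 followed by A, were sought in the annotated 3′ untranslated regions of the members. Only Slc7a2 and Irg1 held any among the 5 genes, shown here with the matched bases in capitals.
Slc7a2, miR-7a match (chr8:40920127-40920133, plus strand, in 2 of 4 transcripts): taaaatgtttTCTTCCAgtgcctttaatc
Slc7a2, miR-29a match (chr8:40918308-40918314, plus strand, in 2 of 4 transcripts): tttattttacTGGTGCTctttggcataag
Irg1, first miR-146a match (chr14:103056153-103056159, plus strand): aatccctagtGTTCTCAagaaaagaacgg
Irg1, second miR-146a match (chr14:103056256-103056263, plus strand): agaatatatcAGTTCTCAgttcataggag
A match of this kind was common among genes tested under LPS that have an annotated 3′ untranslated region (10847, 10973 and 10682 genes for the 3 mimics): 27.5% held one for miR-7a, 20.2% for miR-29a and 22.1% for miR-146a. A match is a description of the letters and not a shown target.

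All places are on GRCm38, with exons from GENCODE M21. Slc7a2 lies at chr8:40862396-40922308 on the plus strand, opposite the lincRNA Gm26584. Ass1 lies at chr2:31470207-31520672 and Nos2 at chr11:78920787-78960254, both on the plus strand with no overlapping gene. Odc1 lies at chr12:17544794-17551505 on the plus strand, with the snoRNA Gm22748 inside it on the same strand. Irg1 lies at chr14:103046977-103056573 on the plus strand with no overlap. Counts of Ass1, Odc1 and Slc7a2 had decimals in 28, 31 and 12 of 32 libraries, as estimated counts have where reads are shared between features, whereas those of Nos2 and Irg1 were whole in all 32. The restored values that could not be settled were 2 of Odc1. Of the other members, the lowest probability given to the place of a decimal mark was 0.961 for Ass1 and 0.981 for Nos2, the latter in LPS miR-146a replicate 4. An earlier version of the model that put the marks back did not settle Ass1 in VEH scramble or VEH miR-29a.

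Levels of the members fell into 2 kinds. Nos2 and Irg1 differed many-fold between vehicle and LPS, while Slc7a2, Ass1 and Odc1 stayed within a narrower band. Per kilobase of exon, the highest group mean of a member was that of Irg1 in LPS miR-29a (136 ± 49.1 normalised CPM per kb, SD, n = 4), and the mean level of Irg1 per kb was 2.33 in VEH scramble. Nos2 lay between 0.807 and 14.7 per kb in the means of the 8 groups. Slc7a2 lay between 10.2 and 19.3 per kb in these means, Ass1 between 11.9 and 25.4, and Odc1 between 10.9 and 27.7.

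**Figure D1:**
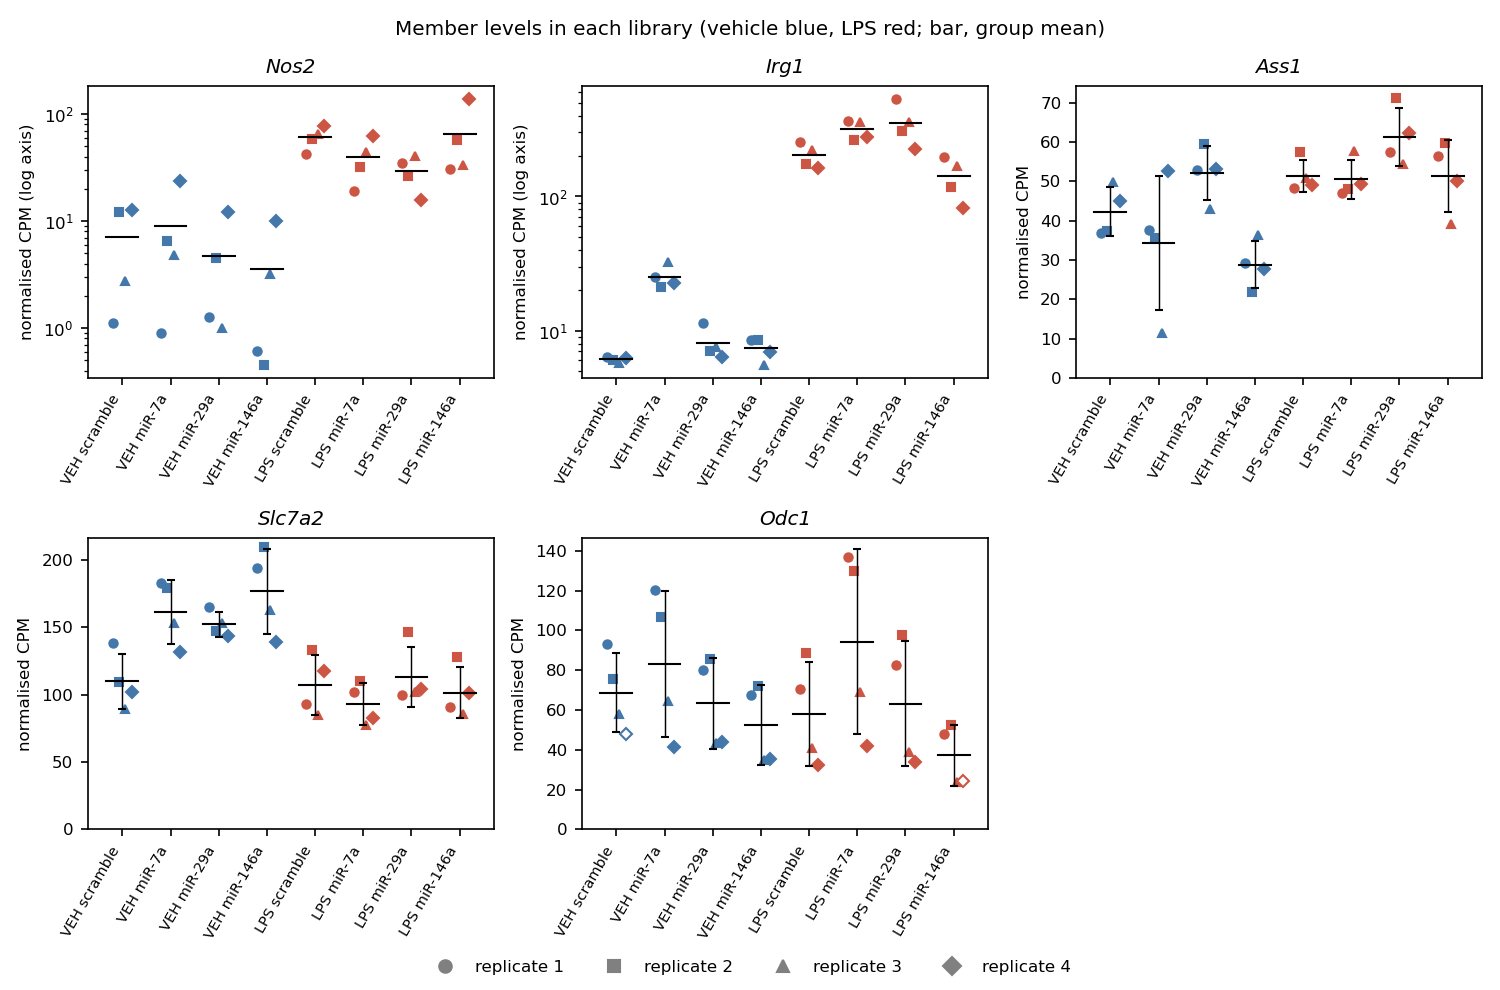
Normalised CPM of the 5 members in each of the 32 libraries (vehicle blue, LPS red, marker shape by replicate number, horizontal bar the mean of 4 libraries, log axis for Nos2 and Irg1, linear axis with SD bars for the others); open markers are uncertain restored values. Irg1 in all 16 LPS libraries (82.1 to 529.9) lies above all 16 vehicle libraries (5.60 to 32.2).

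Nos2, the inducible nitric oxide synthase, rose with LPS under every mimic. With scramble, replicates 1 to 4 held 1.11, 12.2, 2.74 and 12.6 normalised CPM under vehicle and 41.99, 58.4, 64.6 and 77.7 under LPS. With miR-7a, they held 0.902, 6.47, 4.77 and 23.8 under vehicle and 18.9, 31.9, 44.7 and 62.8 under LPS. The conditions did not overlap with scramble, whereas with miR-7a the highest vehicle library stood above the lowest LPS library. With miR-29a, vehicle libraries held 1.26, 4.47, 0.993 and 12.04 and LPS libraries 34.8, 26.2, 40.7 and 15.9. With miR-146a, vehicle libraries held 0.605, 0.456, 3.21 and 9.97 and LPS libraries 30.5, 56.9, 33.7 and 138. Neither of these pairs overlapped, and in each mimic all 4 LPS libraries were above the vehicle library of the same number. The vehicle level was uneven: replicate 4 was the highest library in all 4 vehicle groups, and its values were many times those of replicate 1. Many of these vehicle values rest on few counts. Restored counts in replicates 1 to 4 were 7, 42, 11 and 110 with scramble and 5, 8, 8 and 19 with miR-7a. With miR-29a they were 5, 14, 6 and 121, and with miR-146a 1, 3, 31 and 72.

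The fitted log2 fold change of Nos2 for LPS over vehicle was 3.65 ± 0.55 with scramble (SE, adjusted p = 0.00113) and 3.00 ± 0.63 with miR-29a (adjusted p = 0.00429). It was 3.72 ± 0.81 with miR-7a (adjusted p = 0.0163) and 4.29 ± 0.98 with miR-146a (adjusted p = 0.0246), and all 4 were called. The values moved with single vehicle libraries. With scramble the value was 2.88 without VEH scramble replicate 1 and 4.34 without replicate 4, and with miR-29a it was 2.34 without VEH miR-29a replicate 3 and 4.01 without replicate 4, all of them called. Without VEH miR-7a replicate 1 the miR-7a value was 2.12 (adjusted p = 0.141), the DESeq2 Wald test gave 2.15 (adjusted p = 0.117) and the edgeR quasi-likelihood test 2.66 (adjusted p = 0.0275). The miR-146a value ran from 3.53 without VEH miR-146a replicate 2 to 5.10 without replicate 4, and its call was lost without VEH miR-146a replicate 2, 3 or 4 or LPS miR-146a replicate 2, with adjusted p of 0.0578, 0.1003, 0.0668 and 0.0533 in turn. At a posterior minimum of 0.99 in place of 0.9, Nos2 was left out of the comparisons with LPS miR-146a.

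Irg1, the itaconate enzyme, rose with LPS in all 4 mimics. VEH scramble libraries held 6.33, 6.09, 5.72 and 6.30 normalised CPM, and LPS scramble libraries 255, 176, 220.5 and 162. VEH miR-7a libraries were already higher at 25.1, 21.03, 32.2 and 22.6, against 366, 262, 359.6 and 277 under LPS. VEH miR-29a libraries held 11.3, 7.03, 7.61 and 6.37, and LPS miR-29a libraries 529.9, 305, 361 and 226. No vehicle library came near an LPS library in these 3 mimics. VEH miR-146a libraries held 8.46, 8.51, 5.60 and 6.92, and LPS miR-146a libraries, with the lowest mean under LPS, 196, 117, 169.8 and 82.1. The log2 fold change was 5.03 ± 0.23 with scramble (SE, adjusted p = 2.15e-07) and 5.46 ± 0.32 with miR-29a (adjusted p = 8.02e-07). It was 3.57 ± 0.22 with miR-7a (adjusted p = 3.18e-06), where the vehicle level was raised, and 4.29 ± 0.37 with miR-146a (adjusted p = 3.62e-05). By group means the rise was 33.3-fold, 44.0-fold, 12.5-fold and 19.2-fold in that order. Every alternative fit and every fit without 1 library kept the LPS calls of Irg1.

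The promoter of Irg1 is shown because this gene had the largest rise with LPS of the members with scramble, from 250 bases before to 50 bases after the start that RefSeq gives, which lies inside the gene as GENCODE M21 places it (RefSeq, GRCm38.p6, chr14:103046762-103047061, plus strand), with a TATAAA match, 28 bases before the RefSeq start, in capitals.
Irg1 promoter: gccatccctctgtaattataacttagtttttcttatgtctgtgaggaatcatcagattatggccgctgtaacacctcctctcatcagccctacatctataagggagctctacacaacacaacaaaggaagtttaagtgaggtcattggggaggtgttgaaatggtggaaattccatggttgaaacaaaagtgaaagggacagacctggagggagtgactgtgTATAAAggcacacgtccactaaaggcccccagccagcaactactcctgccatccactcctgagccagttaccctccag
On either strand TATAAA was held by 13.6% of 32851 promoters of this length. The letters TGANTCA (AP-1, held by 7.81%), TTGCNNAA (C/EBP, 10.8%) and CACGTG (an E-box, 7.15%) had no match in it. Of the promoters of Ass1 and Odc1, that of Ass1 held 1 CACGTG, and neither held another of these 4 motifs.

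Slc7a2, the arginine transporter, was lower with LPS in the 3 groups given a microRNA mimic and showed no such difference with scramble, and a difference between mimics in this response did not pass the interaction test. The groups were apart under vehicle rather than under LPS. Mean levels under LPS ran from 93.0 to 113 normalised CPM. Under vehicle the mean was 110 with scramble and 152, 161 and 176 with miR-29a, miR-7a and miR-146a. VEH scramble libraries held 138, 109.6, 89.6 and 102 normalised CPM and LPS scramble libraries 93.4, 133, 84.6 and 118, which overlapped. VEH miR-7a libraries held 183, 179, 153 and 132, all above 102, 110.1, 77.7 and 82.6 under LPS. VEH miR-146a libraries held 194, 209.8, 163 and 139, all above 91.0, 128, 85.3 and 101 under LPS. With miR-29a, vehicle libraries held 165, 147, 153 and 144 and LPS libraries 100.1, 147, 102 and 104, where 1 LPS library reached the vehicle range. The log2 fold change for LPS was -0.02 ± 0.18 with scramble (SE, adjusted p = 0.939), -0.87 ± 0.16 with miR-7a (adjusted p = 0.00685), -0.79 ± 0.16 with miR-146a (adjusted p = 0.0147) and -0.45 ± 0.14 with miR-29a (adjusted p = 0.0353). The last 3 were called. The miR-29a call was lost without VEH miR-29a replicate 1 or 3 or LPS miR-29a replicate 1, 3 or 4 (adjusted p from 0.0644 to 0.102) and with no filter on low counts (-0.39, adjusted p = 0.0998). The miR-146a call was lost without VEH miR-146a replicate 2 (-0.67, adjusted p = 0.0640).

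Ass1, the citrulline-recycling enzyme, was called for LPS only with miR-146a among the 4 mimics. The LPS difference with miR-146a was not shown to differ from that with scramble (limma-voom interaction 0.52, adjusted p = 0.436). With scramble and with miR-29a all 4 LPS libraries were also above the vehicle library of their number. VEH miR-146a libraries held 29.3, 21.8, 36.4 and 27.6 normalised CPM and LPS miR-146a libraries 56.4, 59.9, 39.1 and 50.2, with no overlap and a log2 fold change of 0.82 ± 0.20 (SE, adjusted p = 0.0332). This call was lost without any 1 of 6 of the 8 libraries (all but VEH replicate 3 and LPS replicate 3, adjusted p from 0.0502 to 0.0899). VEH scramble libraries held 36.9, 37.4, 49.8 and 45.1 and LPS scramble libraries 48.4, 57.4, 50.9 and 49.2, a log2 fold change of 0.31 ± 0.15 (adjusted p = 0.164). VEH miR-7a libraries held 37.7, 35.6, 11.3 and 52.7 and LPS miR-7a libraries 47.0, 48.0, 57.9 and 49.5, a log2 fold change of 0.73 ± 0.30 (adjusted p = 0.2003). Vehicle and LPS libraries overlapped in both, and without VEH miR-7a replicate 3, the library at 11.3, the miR-7a value was 0.32 (adjusted p = 0.484). VEH miR-29a libraries held 53.0, 59.4, 42.9 and 53.2 and LPS miR-29a libraries 57.4, 71.3, 54.4 and 62.4, with overlap and a log2 fold change of 0.25 ± 0.15 (adjusted p = 0.228).

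Odc1, the first enzyme of polyamine synthesis, showed no LPS difference beyond its spread where it could be tested. VEH miR-7a libraries held 120.5, 107, 64.4 and 41.4 normalised CPM and LPS miR-7a libraries 137, 129.7, 69.1 and 41.8, a log2 fold change of -0.07 ± 0.40 (SE, adjusted p = 0.950) although all 4 LPS libraries were above the vehicle library of their number, and the DESeq2 Wald test gave 0.13. VEH miR-29a libraries held 80.3, 85.7, 43.3 and 44.1 and LPS miR-29a libraries 82.4, 97.5, 38.8 and 34.1, a log2 fold change of -0.02 ± 0.34 (adjusted p = 0.973). Both pairs overlapped. Odc1 was left out of comparisons with VEH scramble or LPS miR-146a, since the restored value of replicate 4 was uncertain in both groups. With these values kept, the log2 fold change for LPS was -0.32 with scramble (adjusted p = 0.524) and -0.35 with miR-146a (adjusted p = 0.601). The LPS library was lower than the vehicle library of its number in 3 of 4 numbers with scramble and in 4 of 4 with miR-146a, the uncertain values included.

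The members called for LPS against vehicle were 2 of 4 tested with scramble, where 17.9% of 12155 genes were called, and 3 of 5 with miR-7a, where 6.63% of 11788 were (317 higher and 465 lower). With no filter on low counts 7921 of 25719 genes were called with miR-7a, 753 higher and 7168 lower. They were 3 of 5 with miR-29a (26.9% of 12106 genes) and 4 of 4 with miR-146a (4.52% of 11970). Both members called with scramble were higher with LPS, whereas in the 3 groups given a microRNA mimic Slc7a2 was lower. The median log2 fold change of the members tested was 1.98, 0.73, 0.25 and 2.56 in the same order, beside 0.01, 0.02, 0.00 and -0.02 over all genes tested. Odc1 enters the medians with miR-7a and miR-29a only, so the 4 medians are not over the same members and are not compared. Microglial markers moved with LPS as well: with scramble 2 of 13 tested were higher and 6 lower, among them Trem2 at a log2 fold change of -1.37 and Csf1r at -0.62. Their part in the changes of the members was not tested.

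**Figure D2:**
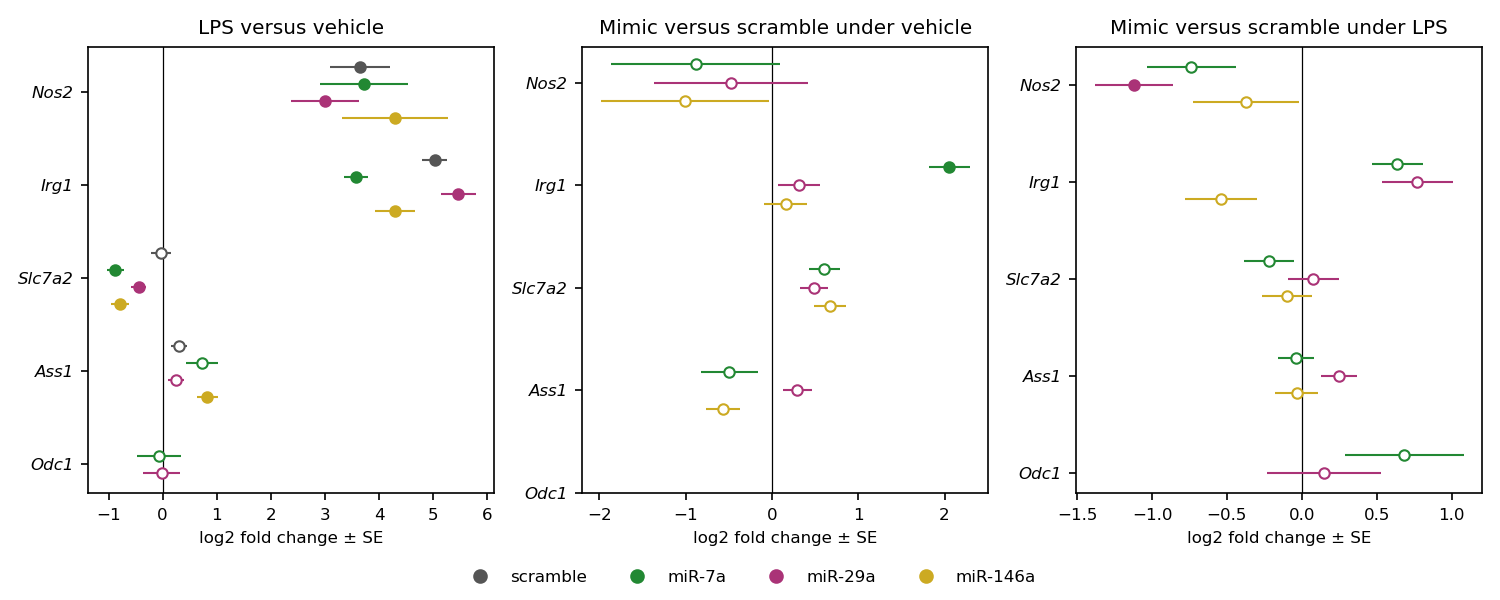
Log2 fold change ± SE of the 5 members in the 10 pairwise comparisons, LPS over vehicle (left), mimic over scramble under vehicle (middle) and mimic over scramble under LPS (right), coloured by mimic; filled points were called and no point is drawn where a member was not tested. Nos2 lies between 3.00 and 4.29 and Irg1 between 3.57 and 5.46 in the left panel, and Irg1 with miR-7a at 2.05 is the filled point of the middle panel.

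Under vehicle the mimics changed 1 member. Irg1 was higher with miR-7a mimic than with scramble (25.2 ± 4.95 against 6.11 ± 0.279 normalised CPM, SD, n = 4 each, 4.13-fold), with no overlap and a log2 fold change of 2.05 ± 0.24 (SE, adjusted p = 0.00690). It was 1 of 4 members tested, where 0.0455% of 10992 genes (5 genes) were called. That number was 229 without VEH miR-7a replicate 1, 41 without VEH scramble replicate 1, 0 without VEH scramble replicate 4 and 2 to 4 without any other library. The call was lost without VEH scramble replicate 4 (2.07, adjusted p = 0.0786) and kept without each of the other 7 libraries, VEH miR-7a replicate 1 with its low structural RNA share included. The high structural RNA share of VEH miR-7a replicates 2 to 4 lies beside this value, which without replicate 1 of that group was 2.10 (adjusted p = 0.000958), and its part in the value was not tested. Slc7a2 (0.60 ± 0.18, adjusted p = 0.229), Ass1 (-0.49 ± 0.33, adjusted p = 0.569, and -0.05 without VEH miR-7a replicate 3) and Nos2 (-0.88 ± 0.98, adjusted p = 0.745) did not pass the test with miR-7a. For Nos2 the group means stood the other way (8.999 ± 10.2 against 7.16 ± 6.08), and the DESeq2 Wald test gave 0.33.

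With miR-29a mimic under vehicle 0 of 4 members tested were called by limma-voom, where 0.00865% of 11556 genes (1 gene) were, and 0 by the DESeq2 Wald test, which called 99 genes. At an unadjusted p under 0.05 stood 1 member and 1194 of all genes. That was Slc7a2, which was higher than in scramble without overlap (152 ± 9.27 against 109.8 ± 20.7 normalised CPM, SD, n = 4 each, log2 fold change 0.49 ± 0.16, adjusted p = 0.335). Irg1 was 8.08 ± 2.22 against 6.11 ± 0.279, also with no overlap (0.31 ± 0.24, adjusted p = 0.682). Ass1 gave 0.29 ± 0.17 (adjusted p = 0.559) and Nos2 -0.47 ± 0.89 (adjusted p = 0.885). With miR-146a mimic under vehicle 0 of 4 members were called by limma-voom, where 1.93% of 11610 genes (224 genes) were. At an unadjusted p under 0.05 stood 2 members and 2937 of all genes, and the DESeq2 Wald test called 1 member and 1230 of all genes. Slc7a2 stood at 176 ± 31.7 with no overlap (0.67 ± 0.18, adjusted p = 0.0640), and Ass1 at 28.8 ± 6.00 against 42.3 ± 6.26, also with no overlap (-0.57 ± 0.20, adjusted p = 0.108). The 224 genes became 1213 without VEH scramble replicate 1, 0 without VEH miR-146a replicate 3 and 5 to 82 without any other library. Slc7a2 was called without VEH scramble replicate 1 (0.79, adjusted p = 0.0240), by the DESeq2 Wald test (0.69, adjusted p = 0.0115), with no filter on low counts (0.68, adjusted p = 0.0499) and in 1 fit of all 8 groups (0.65, adjusted p = 0.0110). Irg1 stood at 7.37 ± 1.40 (0.16 ± 0.25, adjusted p = 0.714) and Nos2 at 3.56 ± 4.45 against 7.16 ± 6.08 (-1.01 ± 0.97, adjusted p = 0.543).

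Under LPS the miR-29a mimic lowered Nos2. Its level was 29.4 ± 10.8 normalised CPM with miR-29a against 60.7 ± 14.8 with scramble (SD, n = 4 each), 2.06-fold lower by means, with no overlap and a log2 fold change of -1.12 ± 0.26 (SE, adjusted p = 0.0322). It was 1 of 5 members tested, where 4.85% of 13162 genes were called. The Nos2 call was lost without LPS scramble replicate 2, 3 or 4 or LPS miR-29a replicate 1 or 2 (adjusted p from 0.0530 to 0.104) and in 1 fit of all 8 groups (-1.14, adjusted p = 0.123), where Irg1 was the member called (0.75, adjusted p = 0.0263). Irg1 was 356 ± 129 against 203 ± 42.7 (0.77 ± 0.24, adjusted p = 0.0860), higher in 4 of 4 numbers, and was called without LPS miR-29a replicate 4 (0.96, adjusted p = 0.0353). Replicates of the same number moved together between these groups, and with the replicate block 2 of 5 members were called, Irg1 added at 0.76 (adjusted p = 0.000329), where 10.4% of genes were called. Ass1 (0.25 ± 0.12, adjusted p = 0.267), Slc7a2 (0.08 ± 0.17, adjusted p = 0.838) and Odc1 (0.15 ± 0.38, adjusted p = 0.864) did not pass the test. Microglial markers were lower too in 3 of 13 tested, namely Fcgr3 (-0.91), Csf1r (-0.70) and Tyrobp (-0.57 on the log2 scale), and their part in the lower Nos2 was not tested.

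With miR-7a mimic under LPS 0 of 5 members tested were called by limma-voom, where 2.83% of 12899 genes were. At an unadjusted p under 0.05 stood 2 members and 2263 of all genes, and the DESeq2 Wald test called 1 member and 790 of all genes. Irg1 was 316 ± 54.4 against 203 ± 42.7 normalised CPM (SD, n = 4 each), higher in every library than all scramble libraries (0.64 ± 0.17, adjusted p = 0.0723). Nos2 was 39.6 ± 18.7 against 60.7 ± 14.8 (-0.74 ± 0.30, adjusted p = 0.229) and Odc1 94.3 ± 46.3 against 58.1 ± 26.2 (0.68 ± 0.40, adjusted p = 0.405). Nos2 was lower and Odc1 higher in 4 of 4 numbers, with overlap. Slc7a2 gave -0.22 ± 0.17 (adjusted p = 0.551) and Ass1 -0.04 ± 0.12 (adjusted p = 0.898). With the replicate block 3 of 5 members were called, where 9.56% of genes were: Irg1 at 0.64 (adjusted p = 0.000477), Odc1 at 0.63 (adjusted p = 0.00256) and Nos2 at -0.64 (adjusted p = 0.0212).

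With miR-146a mimic under LPS 0 of 4 members tested were called by limma-voom, where 2.41% of 12460 genes were. At an unadjusted p under 0.05 stood 1 member and 2191 of all genes, and the DESeq2 Wald test called 0 members and 665 of all genes. Irg1, which carries 2 matches to the miR-146a seed in its 3′ untranslated region, was 141 ± 51.4 against 203 ± 42.7 (-0.54 ± 0.24, adjusted p = 0.273) and was lower in 4 of 4 numbers. With the replicate block Irg1 was called at -0.56 (adjusted p = 0.00684), 1 of 4 members where 10.4% of genes were. Nos2 (-0.37 ± 0.35, adjusted p = 0.632), Slc7a2 (-0.10 ± 0.17, adjusted p = 0.807) and Ass1 (-0.03 ± 0.14, adjusted p = 0.925) did not pass the test. For Nos2 the group means stood the other way (64.7 ± 50.03 against 60.7 ± 14.8), and the DESeq2 Wald test gave 0.09. Slc7a2 carries matches to the seeds of miR-7a and miR-29a and was not called against scramble with either mimic, under vehicle or LPS.

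Whether a mimic acted differently under LPS and under vehicle was tested as an interaction, and 0 of 4 members tested were called for each mimic by limma-voom. At an unadjusted p under 0.05 stood 2, 0 and 2 members with miR-7a, miR-29a and miR-146a, and the DESeq2 Wald test called 1, 0 and 0. Of all genes 0.00832% of 12014 were called for miR-7a, 0.0164% of 12163 for miR-29a and 0% of 12160 for miR-146a. Without VEH miR-7a replicate 1 the miR-7a count was 132 genes, and without VEH scramble replicate 1 the miR-146a count was 66. The limma-voom counts of 1, 2 and 0 genes compare with 640, 797 and 1365 at an unadjusted p under 0.05, and with 74, 17 and 24 genes called by the DESeq2 Wald test. The miR-7a effect on Irg1 was smaller under LPS than under vehicle by a log2 difference of -1.42 ± 0.33 (SE, adjusted p = 0.219), which the DESeq2 Wald test called (-1.46, adjusted p = 0.00221). For Slc7a2 the differences were -0.83 ± 0.24 with miR-7a (adjusted p = 0.509), -0.42 ± 0.23 with miR-29a (adjusted p = 0.797) and -0.77 ± 0.25 with miR-146a (adjusted p = 0.351).

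Replicate numbers left a trace in several members. Odc1 in replicates 1 and 2 was above replicates 3 and 4 in all 8 groups, the ratio of these means being 1.59 to 2.47. VEH scramble libraries held 93.3, 75.6, 57.9 and 48.0 normalised CPM, the last uncertain, and LPS scramble libraries 70.4, 88.8, 41.0 and 32.2. VEH miR-146a libraries held 67.4, 72.2, 34.7 and 35.5, and LPS miR-146a libraries 48.1, 52.6, 24.1 and 24.1, the last uncertain. Nos2 was highest in replicate 4 in 7 of 8 groups, the exception being LPS miR-29a, where that library was the lowest. Irg1 was highest in replicate 1 in 6 of 8 groups. The labels do not say what a number stands for beyond the replicate.

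**Figure D3:**
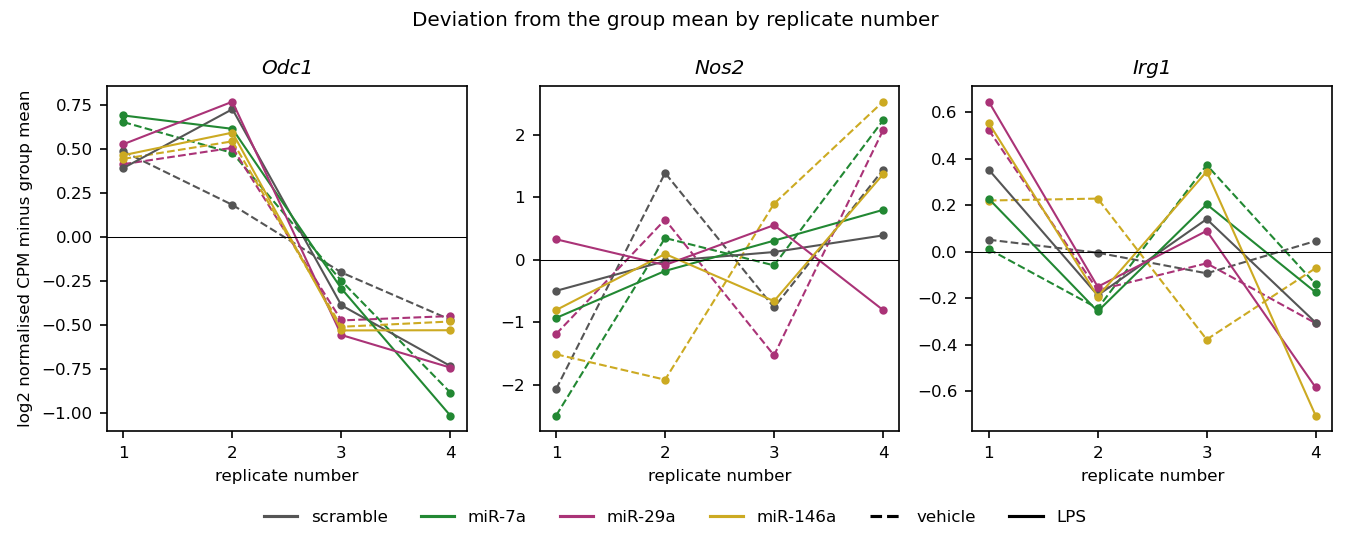
Deviation of log2 normalised CPM from the mean of its own group against the replicate number for Odc1, Nos2 and Irg1; each line is 1 of the 8 groups (dashed vehicle, solid LPS, coloured by mimic). All 8 Odc1 lines lie above 0 at numbers 1 and 2 and under 0 at numbers 3 and 4, and 7 of 8 Nos2 lines are highest at number 4.

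Other genes of the same pathways were taken from lists chosen by function. Of 4 other arginine transporter genes tested, 0 were called in any of the 13 comparisons by limma-voom, where the share of all genes called ran from 0% to 26.9%. Of 9 genes of arginine and citrulline metabolism tested with scramble, 0 were higher and 1 lower with LPS (list median -0.34 against 0.01 over all genes). The share called over all genes, both directions together, was 17.9% in that comparison, and the counts with scramble in the lists that follow stand beside the same share. That was Gamt, which makes creatine from a product of arginine, at a log2 fold change of -1.47, and it was also lower with miR-7a (-1.85) and miR-29a (-1.50). With miR-7a 2 of 9 were lower, Gamt and Gatm, which makes the precursor that Gamt uses (-0.84), where 6.63% of all genes were called. With miR-29a 2 of 9 were lower, Gamt and Azin2 (-1.53), where 26.9% were. With miR-146a 2 of 9 were higher, Asl, the enzyme after Ass1 (0.68), and Aldh18a1, of proline synthesis (0.55), and Gatm was lower (-0.94), where 4.52% were. Under LPS the miR-7a mimic lowered Pycr1, a proline synthesis enzyme (-0.87, adjusted p = 0.0241), 1 of 9 tested where 2.83% of all genes were called.

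Nitric oxide genes other than Nos2 went both ways. With scramble 1 of 10 tested was higher with LPS and 3 lower, and the list median was -0.08. Lower were Spr (-0.89) and Qdpr (-0.86), which make and recycle the cofactor tetrahydrobiopterin, and Ddah1 (-0.66), which breaks down methylated arginines that inhibit nitric oxide synthases. The higher one was Nostrin (0.85). Ddah1 was the gene of this list lower with LPS in all 4 mimics (-0.91, -0.90 and -0.85 with miR-7a, miR-29a and miR-146a). Under LPS, the miR-29a mimic raised Gch1, the first enzyme of tetrahydrobiopterin synthesis (0.69, adjusted p = 0.0290), 1 of 11 tested where 4.85% of all genes were called, and the miR-7a mimic raised Nos1, the neuronal nitric oxide synthase (0.72, adjusted p = 0.0376), 1 of 10 tested where 2.83% were.

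Polyamine genes had 0 higher and 3 lower of 14 tested with LPS in scramble, with a list median of -0.22. They were Sat1 (-0.85) and Paox (-0.64), which break polyamines down, and Eif5a (-0.51), which carries the polyamine-derived residue hypusine. With miR-29a 1 of 14 was higher (Azin1, 0.55) and 3 lower, where 26.9% of all genes were called. Smox, spermine oxidase, was lower with miR-29a than with scramble under LPS (-0.83), 1 of 14 tested where 4.85% of all genes were called. Of 20 genes of itaconate, aconitate and succinate metabolism tested with scramble, 0 were higher and 3 lower with LPS (list median -0.14): the dicarboxylate transporter Slc13a3 (-2.23), Idh2 (-0.54) and Slc25a11 (-0.45). Slc13a3 was also lower with miR-7a (-1.81) and miR-29a (-2.55). Of the 20 genes 0 were higher and 3 lower with miR-7a, where 6.63% of all genes were called. With miR-29a 1 was higher and 3 lower, where 26.9% were, and 0 were called with miR-146a, where 4.52% were.

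Genes known for alternative activation of macrophages had 0 higher and 3 lower of 8 tested with LPS in scramble, with a list median of -0.64. Ccl24 (-2.66), Mgl2 (-1.62) and Mrc1 (-1.23) were the lower ones, and Mrc1 was lower in the other 3 mimics too (-1.41, -1.93 and -1.39 with miR-7a, miR-29a and miR-146a). Under LPS the miR-7a mimic raised Ccl24 (1.89) and Mgl2 (1.00), 2 of 8 tested where 2.83% of all genes were called, and the miR-146a mimic raised Mrc1 (0.90), 1 of 8 tested where 2.41% were. With miR-29a under LPS 1 of 9 tested was called, the transglutaminase Tgm2 (2.20), where 4.85% of all genes were. In the 3 comparisons of mimics under vehicle and the 3 interactions 0 genes of these 6 lists were called by limma-voom. The share of all genes called was 0.0455%, 0.00865% and 1.93% under vehicle with miR-7a, miR-29a and miR-146a. In the interactions it was 0.00832%, 0.0164% and 0% in that order.

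Genes with the pattern most like each member were ranked by Pearson's r of log2 normalised CPM over the 32 libraries, among 9710 genes, or 9711 for Odc1. These values are a description without a test, since the libraries share groups, the LPS difference and replicate numbers. For Irg1 they were Rsad2 (0.965), Lcn2 (0.963) and Epsti1 (0.958), with 0.671, 0.428 and 0.493 within the 16 vehicle libraries and 0.863, 0.715 and 0.867 within the 16 LPS libraries. Those of Nos2 were Pstpip1 (0.893), Ptpn14 (0.881) and Cd38 (0.879), with 0.685, 0.673 and 0.469 within vehicle and 0.418, 0.368 and 0.602 within LPS. Odc1 was followed by Shmt1 (0.844), Sdccag3 (0.843) and Hnrnpab (0.837), with 0.870, 0.867 and 0.894 within vehicle and 0.891, 0.831 and 0.825 within LPS. The nearest to Ass1 was Srr (0.876), then Pigl (0.7996) and Me1 (0.799), with 0.849, 0.794 and 0.793 within vehicle and 0.686, 0.372 and 0.546 within LPS. For Slc7a2 it was Btbd3 (0.823), then Znrf2 (0.796), with 0.705 and 0.792 within vehicle and 0.695 and 0.171 within LPS.

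Between members, Nos2 and Irg1 had a Pearson's r of 0.77 over the 32 libraries, 0.05 within the 16 vehicle libraries and -0.59 within the 16 LPS libraries, so the sign within LPS was not that of the whole. These are descriptions over libraries that share groups and replicate numbers.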

How the data were processed

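The authors depleted ribosomal RNA, prepared CORALL total RNA libraries, sequenced them single-end and ran the nf-core rnaseq pipeline against GRCm38; they deposited 1 table of estimated counts per gene in 32 libraries, and their own fits used limma and edgeR. In that table the decimal mark of values that are not whole had been lost. It was put back by a model that compared each possible reading (whole, or with 1, 2 or 3 decimals, given prior shares of 0.01, 0.09 and 0.9 among values that are not whole) with the level of the gene in the other libraries (t distribution with 7 degrees of freedom and a log2 spread of 0.3, plus a wide tail of 2), and that used the share of values with decimals and the last digits as well. Of 590874 values above 0, 28.5% were restored with decimals, 94.5% of them with 3, and 1.12% had a posterior under 0.9. A comparison dropped any gene with such a value among its own libraries. In simulated data 99.96% of the values with a certain reading were right. There each gene had the same level in all groups, apart from 200 genes changed in LPS scramble. The shares of values with decimals were taken from the restored data. The simulated data are thus simpler than the real ones, and the figure is not the accuracy on these data. Several versions of the model were tried before any test and judged on the digits, totals and fit to levels, with earlier results of these data known. The last change, tighter level spreads, was prompted by the posterior of Ass1, and the earlier version is kept as an alternative added after seeing the data. With that earlier version Ass1 was left out of every comparison that holds VEH scramble or VEH miR-29a, so its values there depend on the change.

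Restored counts were rounded and tested with limma-voom (R 4.3.3, limma 3.58.1, edgeR 4.0.16 for filterByExpr and TMM) in 13 comparisons, 2-sided, with Benjamini-Hochberg adjustment over all genes tested. Called means an adjusted p under 0.05 and a log2 fold change above 0.3 in size. In data simulated for LPS against vehicle with scramble (12603 genes) with 200 genes changed, 84.5% of genes changed 2-fold and 25.4% of those changed 1.5-fold were called, and 1.41% of unchanged genes. Since nearly all genes were unchanged, these 1.41% were a large part of the genes called. In this simulation the share of false calls was thus above the level that the adjusted p sets. Alternatives were other size factors, no filter on low counts, the edgeR quasi-likelihood test, the DESeq2 1.42.0 Wald test, a replicate block, 1 fit of all 8 groups, other rules for uncertain values, the values as deposited, and leaving out each library.

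Same-numbered libraries deviated together: every same-number correlation was above 0.1 in 6 comparisons (LPS against vehicle with scramble and miR-29a, miR-29a under vehicle, and all 3 mimics under LPS), with means from 0.233 to 0.331. The methods of the study call replicates separate experiments, and the labels do not say what a number shares.

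The members, the pathway lists and the marker lists were chosen with earlier results of these data known. Some members and list genes are not reported here, and the counts leave them out. The 5 members reported are named, called genes of the lists are named by their role, and for each member up to 3 genes of highest Pearson's r among genes with a mean of at least 5 CPM. Sequences are from RefSeq tables (GRCm38.p6), which held promoters for Ass1, Irg1 and Odc1. Promoter motifs were chosen after these sequences had been seen, and others that were searched are not reported.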

Additional observations from a re-analysis of the deposited data

Results flagged for a closer look

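Among 40 groups of 4 libraries tested for a library far from the other 3, 1 was set apart, where chance gives about 1 in 20. Slc7a2 in LPS miR-29a was 147 normalised CPM in replicate 2, against 104 in the nearest library.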

How the results depend on the processing

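The count of called members for LPS against vehicle was 2, 3, 3 and 4 with scramble, miR-7a, miR-29a and miR-146a, and on values as deposited it was 1 with scramble, 2 with miR-7a, where Ass1 replaced Nos2 and Slc7a2, 1 with miR-29a and 1 with miR-146a. These unrestored values also turned Slc7a2 to 1.56 with miR-7a and 2.84 with miR-29a and Ass1 to -0.91 with miR-146a, and called 0 members for miR-29a under LPS. A lost decimal mark inflates the counts that had one, and Nos2, which lost that last call, had none. For miR-146a under vehicle 1 member was called in place of 0 with no filter on low counts, the DESeq2 Wald test, the replicate block and 1 fit of all 8 groups. Under LPS miR-7a had 1 with no filter, 1 by the DESeq2 Wald test and 3 with the block in place of 0, miR-29a had 2 with no filter, 2 by DESeq2 and 2 with the block in place of 1, and miR-146a had 1 with the block in place of 0. For the interactions miR-7a had 1 by DESeq2 and 1 with the block in place of 0, which was Irg1 (-1.33, adjusted p = 0.0249 with the block). Other causes were not tested.

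Over fits without 1 library the counts ranged from 2 to 3 with miR-7a, 2 to 3 with miR-29a and 1 to 4 with miR-146a for LPS, from 0 to 1 for miR-7a and 0 to 1 for miR-146a under vehicle, and from 0 to 2 for miR-29a under LPS, and stayed at 2 for scramble and 0 elsewhere. The replicate block raised the genes called from 365, 638 and 300 to 1233, 1365 and 1296 for the mimics under LPS and from 5, 1 and 224 to 308, 67 and 869 under vehicle, from 782 to 1725 and from 541 to 860 for LPS with miR-7a and miR-146a, and from 1, 2 and 0 to 23, 17 and 0 in the interactions. The DESeq2 Wald test gave 1277 and 825 for LPS with miR-7a and miR-146a, 235, 99 and 1230 under vehicle, 790, 1018 and 665 under LPS and 74, 17 and 24 in the interactions. With the block Ass1 lost its call for LPS with miR-146a (0.77, adjusted p = 0.0652). Slc7a2 gained one for miR-146a under vehicle (0.68, adjusted p = 0.0296). Over fits without 1 library the genes called ranged from 61 to 387, 175 to 746 and 30 to 260 under LPS (miR-7a, miR-29a, miR-146a), and from 1122 to 2895, 430 to 834, 2208 to 3682 and 267 to 499 for LPS against vehicle (scramble, then the same order). In the interactions these fits gave 1 to 132, 0 to 3 and 0 to 66 genes. With no filter on low counts 14, 2 and 416 genes were called under vehicle, 4 in the miR-29a interaction and 7921 (753 higher, 7168 lower) for LPS with miR-7a, in place of 782 (317 higher, 465 lower). With 1 fit of all 8 groups 163, 76 and 1493 genes were called under vehicle, 853 for LPS with miR-146a and 3 in the miR-7a interaction. The edgeR quasi-likelihood test called 20 and 2 genes for miR-7a and miR-29a under vehicle and 179 for miR-146a under LPS. For miR-7a under vehicle 37 genes were called at a posterior minimum of 0.99 and 18 with 1 set of library sizes in the restoration.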
